A study of Tetranychus cinnabarinus with 8 samples.

Results

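The genes described here are 46 gene models of the carmine spider mite, Tetranychus cinnabarinus, whose expression was lower at 48 h than at 24 h after spraying with solvent. They came from 15764 genes that were listed in at least 1 of 8 RNA-Seq libraries. Expression was put on the CPM scale, the estimated reads of a gene scaled to the sum over all genes of its library, so that libraries of unequal depth can be compared. A gene had to be longer than 145 bp, hold 50 or more reads in each of the 8 libraries and have a mean RPKM in solvent under 1000. RPKM, which also divides by the length of the gene, is the unit in which levels of different genes can be set side by side. Of the 15764 genes, 7940 met these conditions and were not equal to another gene in length and in every read number, and they are called eligible genes below. The genes were then chosen by their solvent values alone: a gene was taken when the lower of its CPM values in the solvent libraries at 24 h was at least 1.5 times the higher of the values at 48 h, and 46 of the 7940 eligible genes (0.579%) were. The reverse ratio was met by 37 genes (0.466%).

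RNA was taken from whole adult females of a strain kept without pesticides on cowpea, 2 days old by the labels, after the leaves they sat on had been sprayed. The 4 groups were solvent at 24 h, solvent at 48 h, curcumin at 24 h and curcumin at 48 h, with 2 biological replicates each. The solvent was water with Tween 80 and acetone, and the curcumin groups received the same solvent with curcumin at 2.64 mg/mL. A replicate pooled the living mites of several dishes of 1 independent experiment, so mites that had died were not sampled. Every group was sprayed and none was sampled before spraying, so time after spraying, time with the solvent and the age of the mites cannot be told apart.

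Spider mites are tiny arachnids that pierce leaf cells and suck out their content. An adult female spends most of her short life feeding and laying eggs, and her body holds gut, silk glands and a large ovary whose growing eggs are filled with yolk. Curcumin is a yellow plant polyphenol with activity against mites. Because whole mites were used, fewer cells of a type and less RNA per cell cannot be told apart in any value below.

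The reads were mapped to the genome of the sister species T. urticae, and the genes carry identifiers of that genome, in which the digits before the letter g name a stretch of the assembly and those after it the place in its gene order. Only 1 of the 46 genes has a description in the tables of the study. It is tetur10g04980, a putative Ser/Thr protein kinase, an enzyme type that passes phosphate to serine and threonine residues of other proteins. It is also the only one for which a sequence is at hand, the pair of primers of 20 bases designed to amplify it, shown because they mark the stretch of its transcript that a test of this gene by PCR would read. Both are given 5′ to 3′, with no base in capitals.
tetur10g04980 forward primer: atttggaacgcctgaatttg
tetur10g04980 reverse primer: caaatgcttcgtcatcgaaa
For the other 45 genes no name, role or sequence is given here, and how far reads could be shared between closely similar members was not tested.

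The libraries were of similar depth, with 8033325 to 8617973 reads estimated on genes. The member genes held at least 50.6 reads in every library. The shortest listed gene was 140 to 145 bp in the solvent libraries and the curcumin 24 h libraries, but 132 and 131 bp after 48 h of curcumin. Vitellogenin 1 (tetur39g00730), a yolk protein precursor made by egg-laying females, had an RPKM of 2.02 and 1.59 in solvent at 24 h, 23.9 and 10.9 in solvent at 48 h, 6.21 and 9.66 in curcumin at 24 h, and 2.69 and 2.69 in curcumin at 48 h. Its level thus went the other way from the 46 genes in solvent, and its part in their values was not tested.

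The 46 genes were short for the set they came from, and their RPKM was high. Their median length was 880 bp (range 185 to 7303 bp), against 1552.5 bp over the eligible genes, and 43 of 46 were shorter than that median. Their median of the mean RPKM in solvent was 42.5, against 17.2 over the eligible genes, and 33 of 46 were above it. RPKM divides by length, and a minimum of reads asks for a higher RPKM in a shorter gene. How the 46 genes compared with the eligible genes in CPM was not worked out. The highest was tetur14g02720 with an RPKM of 916, followed by tetur06g00230 with 601 and tetur01g00940 with 457. The lowest was tetur04g08890 with 2.07, which is also the longest member (7303 bp), then tetur92g00010 with 4.95 (5463 bp) and tetur33g01130 with 6.19 (1228 bp). Genes with few reads were kept out by the rule: a further 359 genes under the minimum of reads met the ratio.

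In solvent the group held a much smaller share of the library at 48 h. Together the 46 genes took 0.900% and 0.932% of all reads at 24 h, and 0.501% and 0.486% at 48 h. The ratio of mean CPM at 24 h to that at 48 h had a median of 1.94 and ran from 1.59 to 3.05, and it was at least 2 in 19 of the 46 genes. Over the eligible genes the median was 1.05, and 63.0% of them had a lower mean at 48 h. Since the solvent values chose the genes, they are a description and carry no test. Leaving out a solvent library can only keep or add genes, since the rule sets the lower value against the higher one. Without solvent replicate 1 or 2 at 24 h the rule took 156 or 93 genes. Without replicate 1 or 2 at 48 h it took 82 or 556, and all 46 genes were kept each time. With the libraries rescaled by TMM, a scaling that sets aside the genes that change most, 34 of the 46 met the rule.

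**Figure D1:**
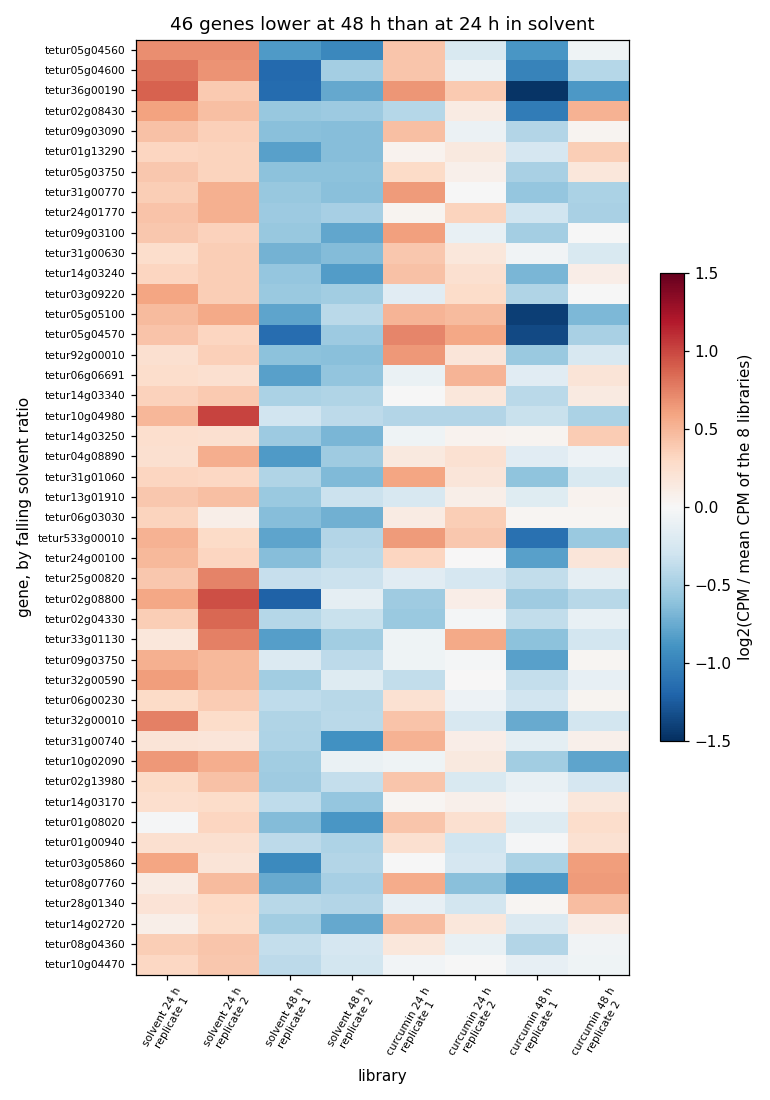
Heat map of the 46 genes (rows, ordered from the largest to the smallest solvent ratio) in the 8 libraries (columns), where colour is the log2 of the CPM over the mean CPM of the gene in all 8 libraries. The median over the genes was 0.37 and 0.37 for solvent at 24 h, −0.57 and −0.52 for solvent at 48 h, 0.20 and 0.08 for curcumin at 24 h, and −0.44 and −0.03 for curcumin at 48 h, where the genes were chosen for high values in solvent at 24 h and low values in solvent at 48 h.

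The largest solvent ratio, lower value at 24 h over higher value at 48 h, belonged to tetur05g04560. Its CPM in solvent was 175 and 175 at 24 h, and 59.5 and 55.2 at 48 h, a ratio of 2.93 and a 3.05-fold difference of the means. The second, tetur05g04600, stood at 216 and 198 CPM and then at 55.1 and 86.8 CPM. In both genes the replicates at 24 h lay close together and far above those at 48 h. The third was tetur36g00190, with 111 and 78.6 CPM at 24 h against 27.1 and 35.2 CPM at 48 h. Its means differed by 3.05-fold, as in tetur05g04560, but its replicates were further apart at both times, and its ratio was 2.23. These 3 genes were the only members with a ratio of at least 2 before rounding. For tetur02g08430 the ratio was 1.995, from 20.4 and 18.4 CPM to 9.07 and 9.25 CPM.

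In the 9 genes described next the mean at 24 h in solvent was 1.98 to 2.07 times that at 48 h, with replicates close together. Among them tetur09g03090 went from 379 and 357 CPM to 181 and 179 CPM in solvent, and its neighbour by identifier, tetur09g03100, from 140.2 and 135 CPM to 71.4 and 62.0 CPM. In tetur01g13290 the values were 52.6 and 53.1 CPM, then 24.0 and 27.0 CPM. The values of tetur05g03750 were 28.9 and 27.5 CPM at 24 h and 14.2 in each library at 48 h. None of these gaps was bridged by a replicate, as the rule requires. More strongly expressed were tetur31g00630, with 753 and 812 CPM at 24 h and 384 and 401 CPM at 48 h, and tetur14g03240, with 327 and 338 CPM and then 175 and 146 CPM. For tetur31g00770 they were 134 and 150.4 CPM, then 70.0 and 67.3 CPM. Low in reads but alike in shape were tetur24g01770 (26.2 and 28.1 CPM, then 13.4 and 13.8 CPM) and tetur03g09220 (14.99 and 12.8 CPM, then 6.73 and 6.88 CPM).

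The limit of the rule ran through a continuous series of values. Just inside it were tetur14g02720 and tetur08g04360, both with a ratio of 1.53, and tetur10g04470 with 1.501. Just outside were tetur09g01700 with 1.498, tetur01g10090 with 1.494 and tetur557g00020 with 1.490. In curcumin, the ratio of the mean CPM at 24 h to that at 48 h was 1.29, 1.20 and 1.05 for the 3 inside and 0.932, 1.53 and 1.07 for the 3 outside.

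The question for the curcumin libraries, which took no part in the choice apart from the minimum of reads, was whether the same genes were lower at 48 h there too. Before the answer, the replicates of these genes in curcumin have to be described, because they differed more than in solvent. The median ratio between replicates, larger over smaller, was 1.08 in solvent at 24 h and 1.14 at 48 h, but 1.22 in curcumin at 24 h and 1.29 at 48 h. Over the eligible genes it was 1.10, 1.16, 1.10 and 1.13 in the same order. Replicates differed by 1.5 times or more in 0 and 3 of the 46 genes in solvent at 24 h and 48 h, and in 9 and 12 in curcumin. The share of eligible genes beyond this limit was not worked out. The rule favours genes whose solvent replicates lie close together, so the small spread in solvent was partly fixed by the choice. In 41 of the 46 genes (89.1%) curcumin replicate 2 at 48 h was above replicate 1, where 56.1% of the eligible genes were. The other pairs were less one-sided: replicate 1 was above replicate 2 in 28 genes (60.9%) in curcumin at 24 h and in 22 (47.8%) in solvent at 24 h, where 49.7% and 47.3% of the eligible genes were, and replicate 2 was above replicate 1 in 27 (58.7%) in solvent at 48 h, where 67.4% were. The share of reads held by the 46 genes was 0.921% and 0.764% at 24 h of curcumin, against 0.589% and 0.730% at 48 h, so the higher value at 48 h was close to the lower value at 24 h.

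Both curcumin libraries at 48 h lay below both at 24 h in 19 of the 46 genes (41.3%), where 23.9% of the eligible genes did so. They lay above in 1 gene (2.17%), against 23.2% of the eligible genes, and overlapped in the other 26. The mean was lower at 48 h in 37 genes (80.4%), where 50.3% of the eligible genes had a lower mean. All such counts come from the same curcumin libraries, so the 46 genes are not independent observations. The ratio of mean CPM at 24 h to that at 48 h had a median of 1.23 (range 0.728 to 3.16), against 1.00 over the eligible genes. It was at least 2 in 4 genes and smaller than the ratio of the same gene in solvent in 42. That last count compares a contrast that chose the genes with one that did not, so nothing is read from it. The ratio of at least 1.5 without overlap, which chose the genes in solvent, was met in curcumin by 4 of them (8.7%) and by 0.806% of the eligible genes. The reverse ratio was met by 0 of them and by 0.491% of the eligible genes.

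With a curcumin library left out these counts can only stay or rise, so they are given beside the shares over the eligible genes. Without curcumin replicate 1 or 2 at 24 h, 26 or 29 genes did not overlap and were lower at 48 h (36.8% or 36.0% of the eligible genes). Without curcumin replicate 1 or 2 at 48 h, 21 or 38 were (33.9% or 42.1% of the eligible genes). The number that met the 1.5-fold ratio was 7 or 10 without replicate 1 or 2 at 24 h (1.85% or 1.84% of the eligible genes), and 5 or 12 without replicate 1 or 2 at 48 h (1.35% or 4.03%). Both counts, and both shares over the eligible genes, were highest without replicate 2 at 48 h. There 82.6% of the 46 genes were lower without overlap, beside 42.1% of the eligible genes. Without replicate 1 at 48 h they were 45.7%, beside 33.9%. The median log2 fold change of the 46 genes by edgeR was −0.47 without replicate 2 and −0.14 without replicate 1. The gap to the eligible genes was thus much larger when replicate 1 was the 48 h library kept.

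**Figure D2:**
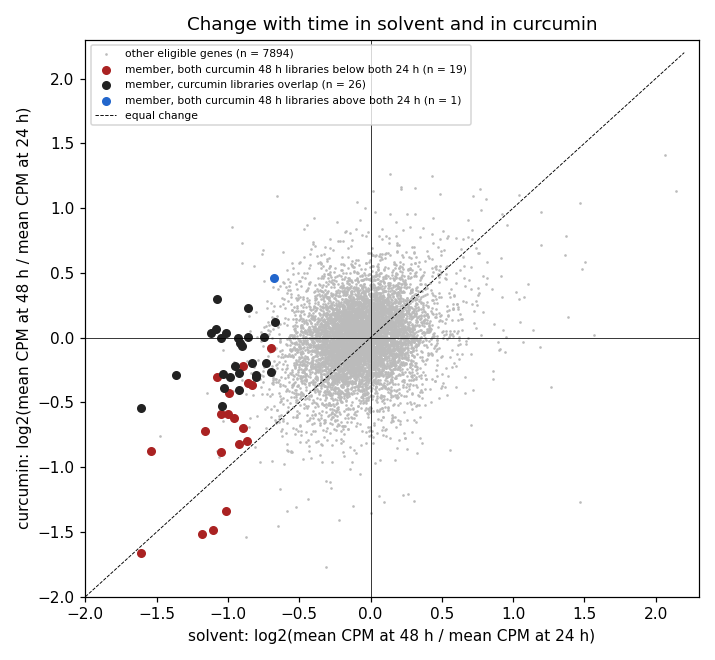
Change with time in solvent (horizontal axis) and in curcumin (vertical axis) as log2 of the mean CPM at 48 h over that at 24 h, for the 46 genes in colour and the other 7894 eligible genes in grey, with the dashed line at equal change. All 46 lie left of 0 because they were chosen so, 37 lie below 0 in curcumin, the median over all 46 is −0.30, and 4 lie below the dashed line.

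Tested across all genes in the 4 curcumin libraries with the quasi-likelihood test of edgeR, 3 of the 46 genes (6.52%) fell from 24 h to 48 h at an FDR of 0.05, and 0 rose. Among all 11800 genes tested 0.212% were called lower and 0.22% higher, 51 genes in all. At an unadjusted p under 0.05, 13 members (28.3%) were lower, where 6.64% of all genes were, and 1 member was higher, where 6.53% were. Over the eligible genes alone these shares were 7.07% lower and 6.98% higher, and at an FDR of 0.05 0.214% and 0.126%. All 46 genes entered the fit, and 35 (76.1%) had a log2 fold change under 0, where 49.6% of all genes tested and 48.6% of the eligible genes did. Their median log2 fold change was −0.29 (range −1.65 to 0.47), against 0.00 over all genes tested. With 2 libraries per group the fit had 2 residual degrees of freedom, and calls at this size depend on the libraries: 0 of the 46 genes were called without curcumin replicate 1 or 2 at 24 h, where 33 or 10 of all genes were called in either direction. Without replicate 1 or 2 at 48 h, 5 or 6 of the 46 were called, where 88 or 441 of all genes were.

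**Figure D3:**
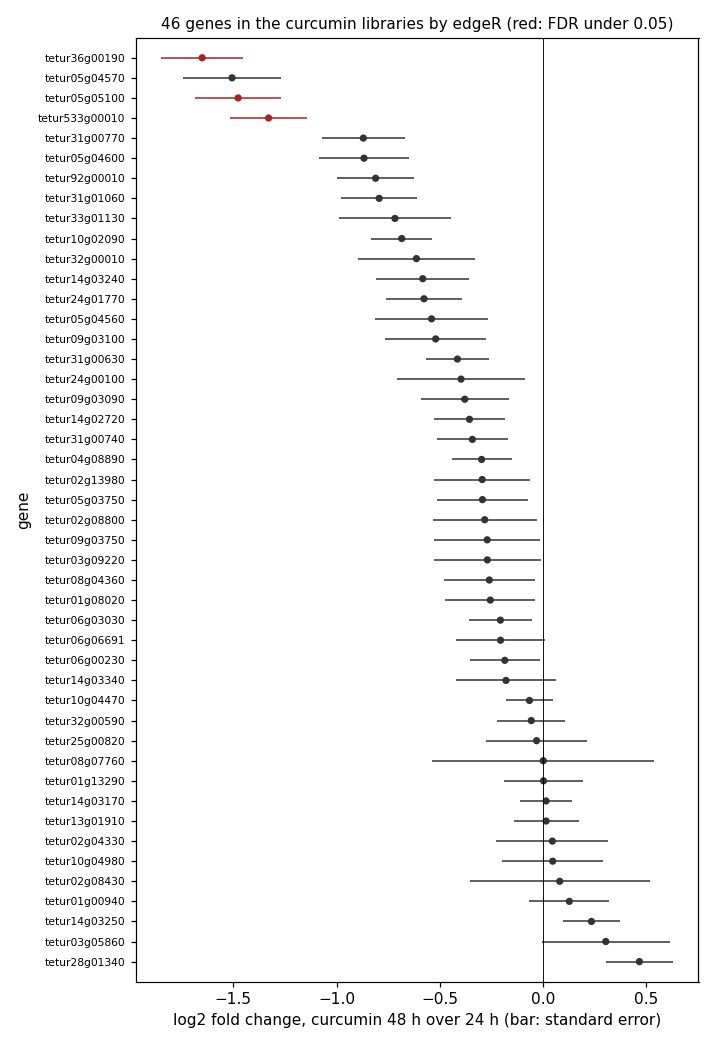
Log2 fold change in curcumin, 48 h over 24 h, from the fit by edgeR to the 4 curcumin libraries, for each of the 46 genes, with its standard error as a bar and the 3 genes past an FDR of 0.05 in red. The genes run from −1.65 (tetur36g00190) to 0.47 (tetur28g01340), and 35 of 46 are below 0.

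The gene that fell furthest in curcumin was tetur36g00190. Its CPM in curcumin was 94.8 and 78.9 at 24 h, and 21.7 and 33.2 at 48 h. On the scale per length this was a mean RPKM of 48.1 ± 6.20 (SD, n = 2) and then 14.8 ± 4.52 (SD, n = 2). By edgeR its log2 fold change, −1.65 ± 0.20 (standard error), had an adjusted p of 0.023. The curcumin values nearly repeated those in solvent at each time point, and the groups at 24 h and at 48 h stood well apart under both treatments.

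The other genes that passed were tetur533g00010 and tetur05g05100. For tetur533g00010 the curcumin values were 101 and 85.3 CPM at 24 h and 29.8 and 43.9 CPM at 48 h (log2 fold change −1.33, standard error 0.18, adjusted p = 0.0337 by edgeR). In solvent this gene had 93.1 and 79.0 CPM, then 37.5 and 47.8 CPM, so in each treatment the 24 h libraries were more than 1.5 times the 48 h libraries. For tetur05g05100 the curcumin values were 234 and 229 CPM at 24 h and 62.0 and 104 CPM at 48 h (log2 fold change −1.48, standard error 0.21, adjusted p = 0.0345 by edgeR). Its solvent values were 229 and 244 CPM, then 95.2 and 125 CPM. Across the main setting and its 14 alternatives the adjusted p ran from 3.29e-09 to 0.276 for tetur36g00190, from 1.12e-06 to 0.302 for tetur533g00010 and from 1.97e-09 to 0.306 for tetur05g05100.

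Closest to these was tetur05g04570, the neighbour by identifier of tetur05g04560. It had 58.1 and 52.3 CPM in curcumin at 24 h and 13.7 and 24.9 CPM at 48 h, and in solvent 47.1 and 43.7 CPM, then 15.9 and 24.1 CPM. Its log2 fold change of −1.51 (standard error 0.24) had an adjusted p of 0.0533 by edgeR and missed the threshold. Together with the 3 genes that fell it makes up the 4 that met the ratio of 1.5 in curcumin, and these same 4 are the members whose ratio of means was larger in curcumin (2.53 to 3.16) than in solvent (2.02 to 3.05).

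**Figure D4:**
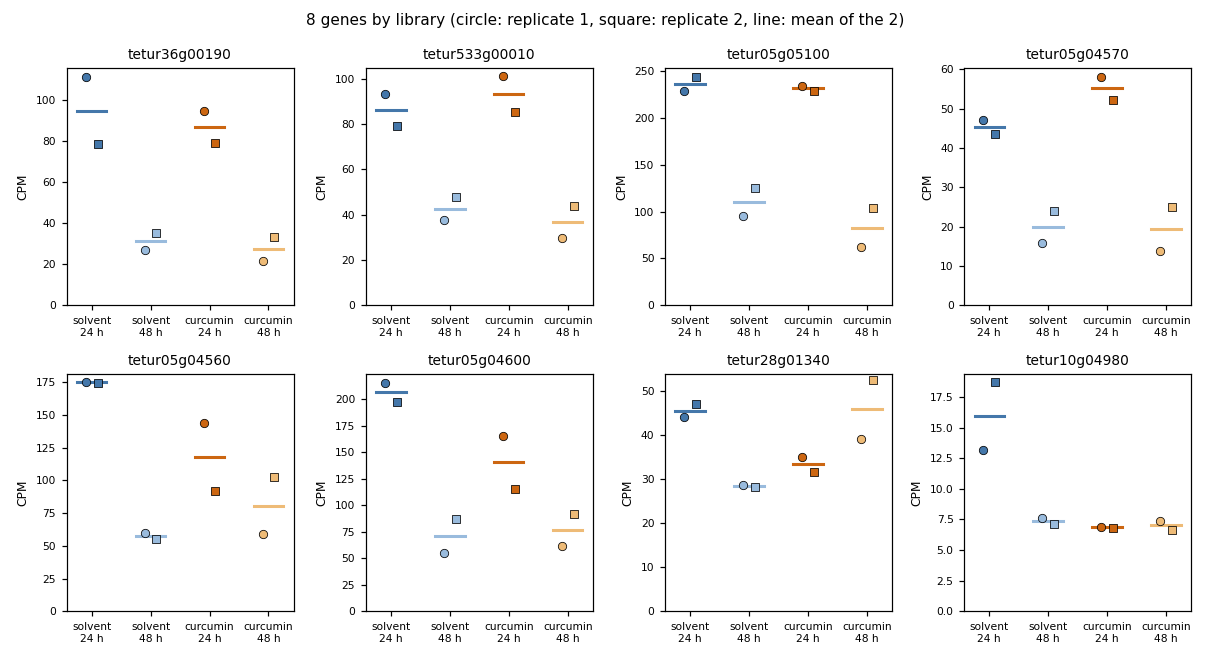
CPM in each of the 8 libraries for 8 of the genes (vertical axis from 0, circles for replicate 1, squares for replicate 2, lines for the mean of the 2), grouped as solvent and curcumin at 24 h and 48 h. In the upper row and in tetur05g04600 both curcumin libraries at 48 h are below both at 24 h, in tetur05g04560 and tetur10g04980 they overlap, and in tetur28g01340 they are above.

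The next members by p-value did not pass the test. In tetur10g02090 the curcumin values were 112 and 129.7 CPM, then 81.4 and 67.8 CPM (log2 fold change −0.68, standard error 0.15, adjusted p = 0.106 by edgeR). In tetur92g00010 they were 67.8 and 49.2 CPM, then 29.5 and 36.8 CPM, in tetur31g00770 161 and 104 CPM, then 69.2 and 74.3 CPM, and in tetur31g01060 684 and 516 CPM, then 299 and 389 CPM. The adjusted p of these 3 was 0.13, 0.131 and 0.131 by edgeR, at log2 fold changes of −0.81, −0.87 and −0.79. In all 4 the groups did not overlap in curcumin, and the 24 h replicates were the ones that differed more in the last 3.

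The pair with the largest solvent ratios also had lower means at 48 h in curcumin, but did not pass the test. In tetur05g04560 the curcumin libraries held 144 and 92.0 CPM at 24 h and 59.0 and 103 CPM at 48 h, so the groups overlapped (log2 fold change −0.54, standard error 0.27, adjusted p = 0.447 by edgeR). In tetur05g04600 the values were 166 and 116 CPM, then 61.7 and 91.8 CPM, without overlap (log2 fold change −0.87, standard error 0.22, adjusted p = 0.161 by edgeR). In both genes the curcumin libraries at 24 h were below the solvent libraries at 24 h without overlap, as in 31.5% of eligible genes. High solvent values at 24 h were a condition of the choice, so nothing is read from this.

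In other genes of high solvent ratio the curcumin replicates also lay far apart. In tetur09g03090 the curcumin libraries had 382 and 262 CPM at 24 h and 205 and 287 CPM at 48 h. Its neighbour tetur09g03100 had 162 and 98.1 CPM, then 74.4 and 106 CPM. In tetur14g03240 they had 356 and 309 CPM, then 162 and 279.6 CPM. In the first pair the higher library at 48 h was above the lower one at 24 h, and in tetur14g03240 it came just below it. The most divided was tetur08g07760, chosen after its values were seen, with 58.6 and 25.8 CPM in curcumin at 24 h and 22.0 and 62.3 CPM at 48 h, against 43.5 and 55.7 CPM, then 23.8 and 28.2 CPM in solvent. At each time in curcumin 1 library was more than 2 times the other, and the standard error of its log2 fold change, 0.54, was the largest of the 46.

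Among the 3 most strongly expressed members, tetur14g02720 had 1525 and 1733 CPM in solvent at 24 h, 995 and 840.0 CPM in solvent at 48 h, 1969 and 1611 CPM in curcumin at 24 h, and 1228 and 1553 CPM in curcumin at 48 h. For tetur06g00230 the values were 1265 and 1339.6, 790.4 and 773, 1206 and 977, and 845 and 1064 CPM in the same order. Both curcumin libraries at 48 h were thus above both solvent libraries at 48 h in each of these genes. Over the eligible genes the share was 17.2%, and low solvent values at 48 h were a condition of the choice. In tetur01g00940 the curcumin libraries held 718 and 494 CPM at 24 h and 604 and 713 CPM at 48 h, where solvent had 722 and 719 CPM, then 464 and 443 CPM. Of the 3 with the lowest RPKM, tetur04g08890 had 26.0 and 27.6 CPM, then 21.0 and 22.3 CPM in curcumin, and 27.9 and 34.3 CPM, then 13.1 and 16.3 CPM in solvent. In tetur33g01130 the curcumin values were 10.6 and 16.6 CPM, then 7.30 and 9.22 CPM, and the solvent values 12.6 and 18.9 CPM, then 6.32 and 7.78 CPM. In both genes neither treatment overlapped between the time points.

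The 5 members with the highest log2 fold change in curcumin did not pass the test either. The highest was tetur28g01340, a gene of 198 bp, with 35.0 and 31.7 CPM in curcumin at 24 h and 39.1 and 52.5 CPM at 48 h, while solvent went from 44.0 and 46.9 CPM to 28.6 and 28.2 CPM. It was the only member whose curcumin libraries at 48 h were both above those at 24 h (log2 fold change 0.47, standard error 0.16, adjusted p = 0.28 by edgeR). For tetur03g05860 the curcumin values were 21.1 and 17.9 CPM, then 15.3 and 32.7 CPM (log2 fold change 0.30, standard error 0.31), and for tetur14g03250 they were 131 and 142 CPM, then 141 and 178 CPM (log2 fold change 0.23, standard error 0.14). In tetur01g00940 and tetur02g08430 the log2 fold changes were 0.13 and 0.08, with standard errors of 0.19 and 0.44. The adjusted p of the last 4 ran from 0.514 to 0.96 by edgeR, and in tetur03g05860 and tetur02g08430 replicate 2 at 48 h alone was high (32.7 and 19.4 CPM, against 15.3 and 6.499 CPM in replicate 1).

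The neighbours tetur14g03240 and tetur14g03250 had fitted changes of opposite sign in curcumin. Their likeness in solvent was a condition of the choice. In solvent tetur14g03250 had 163 and 161 CPM at 24 h and 93.4 and 84.9 CPM at 48 h, and the ratio of means from 24 h to 48 h was 1.81, beside 2.07 in tetur14g03240. Their fitted log2 fold changes in curcumin were −0.58 (standard error 0.23) and 0.23 (standard error 0.14), and neither passed the test. The difference between the genes was not tested.

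The putative kinase tetur10g04980, whose primers are printed above, was low in all libraries but those of solvent at 24 h. It had 13.1 and 18.8 CPM there, 7.62 and 7.10 CPM in solvent at 48 h, 6.87 and 6.83 CPM in curcumin at 24 h, and 7.35 and 6.68 CPM in curcumin at 48 h. The 6 lower values span less than 1 CPM and rest on 56.9 to 61.2 reads, little above the minimum of reads in the rule. In solvent at 24 h the libraries held 112 and 159 reads. High solvent values at 24 h and low ones at 48 h were a condition of the choice. The gap to solvent at 24 h was thus partly fixed by the choice, and nothing is read from it. Its log2 fold change in curcumin was 0.05 (standard error 0.24, adjusted p = 0.959 by edgeR). With 185 bp it is the shortest of the 46 genes.

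Set beside solvent at the same time, the 46 genes were as follows. Both curcumin libraries at 24 h were below both solvent libraries at 24 h in 25 of the 46 genes (54.3%), where 31.5% of the eligible genes were, and above them in 1 gene, tetur05g04570, where 15.6% were. At 48 h both curcumin libraries were above both solvent libraries in 23 genes (50%), where 17.2% of the eligible genes were, and below in 1, tetur10g02090, where 15.4% were. Lower at 24 h and higher at 48 h were 13 genes (28.3%), where 5.19% of the eligible genes were. The median log2 of mean CPM in curcumin over solvent was −0.24 at 24 h (eligible genes −0.06) and 0.31 at 48 h (eligible genes 0.01). The solvent libraries of these comparisons chose the genes, as high at 24 h and low at 48 h, so nothing is read from these counts and no test was made.

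In 10 genes (21.7%) the curcumin libraries overlapped with time, were below solvent at 24 h and overlapped with solvent at 48 h, where 13.0% of the eligible genes did so. The solvent values at 24 h that enter this count also chose the genes. Besides the kinase and tetur05g04560 they include tetur02g08430, with 9.99 and 14.7 CPM, then 6.499 and 19.4 CPM in curcumin. The clearest of the rest, chosen after their values were seen, were tetur25g00820 and tetur32g00590. In tetur25g00820 solvent had 10.8 and 13.7 CPM, then 6.44 and 6.53 CPM, and curcumin had 7.28 and 6.87 CPM, then 6.33 and 7.40 CPM. In tetur32g00590 solvent had 62.6 and 57.1 CPM, then 28.4 and 35.6 CPM, and curcumin had 31.5 and 40.9 CPM, then 31.7 and 37.3 CPM. The curcumin values of both genes lay near those of solvent at 48 h at either time.

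A further 9 genes (19.6%) overlapped with time in curcumin and were below solvent at 24 h and above it at 48 h, where 0.856% of the eligible genes were, and here too the choice of the genes bears on the count. One was tetur01g13290, with 43.7 and 46.5 CPM, then 35.3 and 54.6 CPM in curcumin. In tetur13g01910, chosen after its values were seen, solvent went from 655 and 675 CPM to 338 and 395 CPM, and curcumin from 419 and 528 CPM to 435 and 515 CPM. The other 7 were tetur05g03750, tetur03g09220, tetur14g03340, tetur14g03250, tetur06g00230, tetur14g03170 and tetur01g00940.

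By identifier the 46 genes were spread over 20 of the 157 assembly stretches that hold eligible genes. The stretches with the most were tetur05 (5 of 416 eligible genes), tetur14 (5 of 171), tetur02 (4 of 634) and tetur31 (4 of 91), while 8 stretches held 1 each. Of the 46 genes, 6 stood directly next to another of them in the order of eligible genes, in the pairs tetur05g04560 and tetur05g04570, tetur09g03090 and tetur09g03100, and tetur14g03240 and tetur14g03250. The 79 other eligible genes next to a member had a median log2 of −0.09 from 24 h to 48 h in solvent (eligible genes −0.07), and 54 of them had a lower mean at 48 h, where 63.0% of the eligible genes did. In curcumin their median log2 was −0.085 (eligible genes −0.0024). The distances between these genes in bases are not used here.

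The densest run was in tetur05, where tetur05g04560, tetur05g04570 and tetur05g04600 are parted by a single eligible gene, tetur05g04590. That gene is no member, with a solvent ratio of 1.28, and is named after its values were seen. Its log2 change in solvent was −0.65 by mean CPM, and in curcumin it fell (log2 fold change −1.44, standard error 0.174, adjusted p = 0.023 by edgeR). The 4 neighbours in this run thus all had lower means at 48 h under both treatments. Lower means were seen in 63.0% of the eligible genes in solvent and in 50.3% in curcumin. For the members the solvent side was fixed by the choice, and in tetur05g04560 the curcumin libraries overlapped. Further along tetur05 lies tetur05g05100, with a log2 change by mean CPM of −1.10 in solvent and −1.48 in curcumin. On tetur31, the 4 members tetur31g00630, tetur31g00740, tetur31g00770 and tetur31g01060 were all lower at 48 h without overlap in curcumin. Over the 46 genes the share was 41.3%, and over the eligible genes 23.9%. None of the 4 passed the test, and in tetur31g00740 the gap was narrow, with 574 and 428 CPM, then 362 and 423 CPM.

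**Figure D5:**
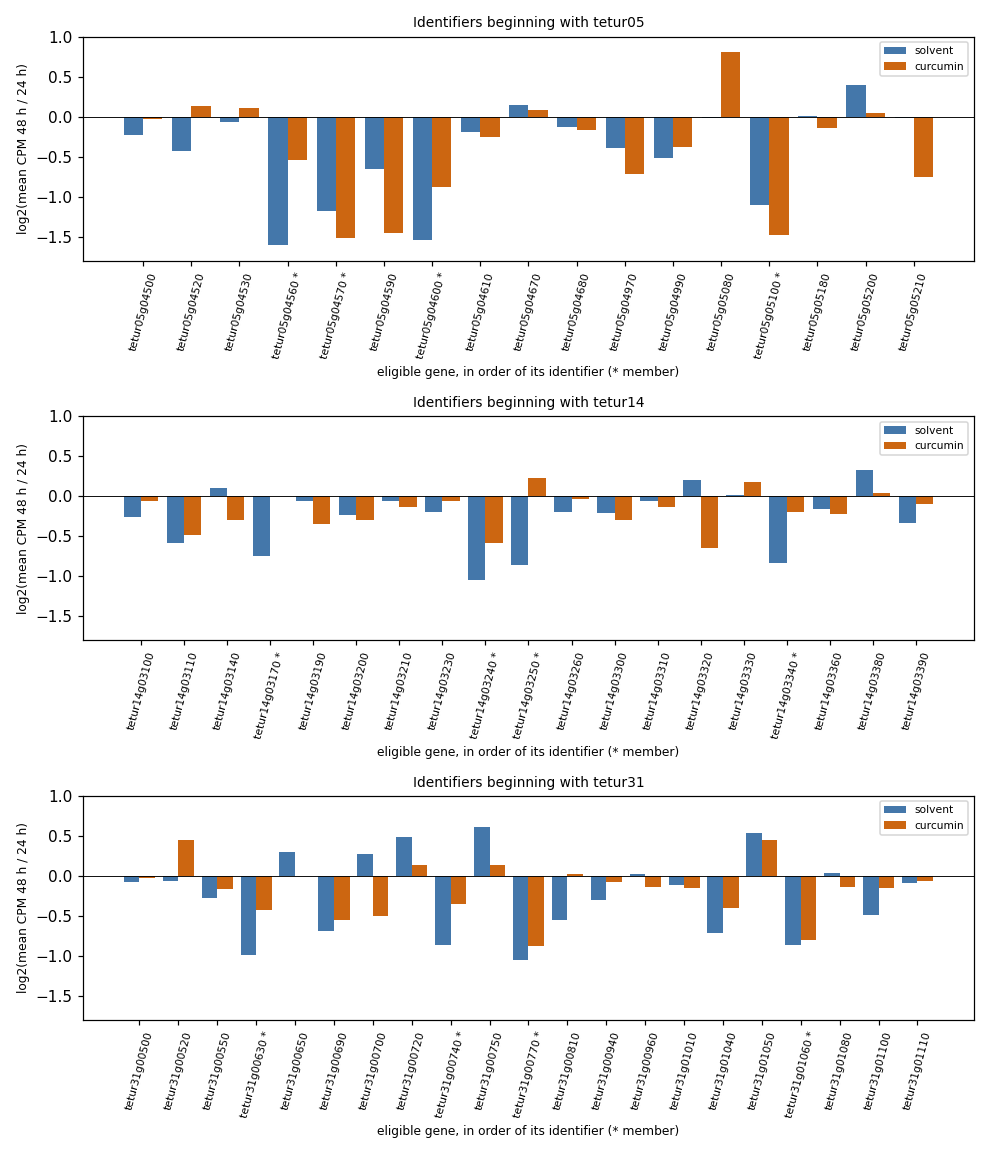
Log2 of the mean CPM at 48 h over 24 h in solvent (blue) and curcumin (orange) for eligible genes around the members on tetur05, tetur14 and tetur31, in the order of their identifiers, with members marked by an asterisk. The run from tetur05g04560 to tetur05g04600 is below 0 under both treatments, while on tetur14 the neighbours tetur14g03240 and tetur14g03250 are on different sides of 0 in curcumin, at −0.59 and 0.23.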

How the data were processed

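RNA-Seq libraries (single-end, Ion Proton) were made from live mites of 4 groups with 2 replicates each. The authors removed adaptors and low-quality reads and used T-Map to align the rest to the genome of T. urticae. For each library the authors deposited an estimated count of reads per gene, which need not be whole, and the RPKM, which the authors scaled by exon length and by mapped reads. Neither the tool behind the estimated reads nor the release of the T. urticae gene models is stated in the sources used here. Libraries list genes above 0 only, and unlisted genes were set to 0.

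The genes were chosen by the ratio of CPM described in the report. The members, the lists and the tests were chosen with earlier results of these data known. Rounded reads of the 4 curcumin libraries, 48 h against 24 h, were fitted in R 4.3.3 by the robust quasi-likelihood method of edgeR 4.0.16 after filterByExpr and TMM, with Benjamini-Hochberg adjustment over 11800 genes and calls at an FDR of 0.05. Standard errors were worked out from the F statistic. Python 3.11.15 with pandas 2.3.3 and numpy 2.4.6 gave the other values. The fit was first tested on simulated data.

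Depth was 8033325 to 8617973 estimated reads per library, and p-values measure only the spread between 2 pooled samples a group. In the main fit the spread of each gene was also drawn toward that of other genes. This added a median of 5.84 prior degrees of freedom to the 2 residual ones. The alternatives were DESeq2 1.42.0, scaling without TMM, no low-count filter, all 8 libraries in the fit, a replicate block, limma 3.58.1 on log2(RPKM + 1) and log2(RPKM + 0.1), the thresholds of the study, other limits in the rule, and each library left out.

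Genes were named by a rule: the 15 largest solvent ratios, 3 genes on each side of the limit, the 8 members of lowest p-value, the 5 highest log2 fold changes in curcumin, the 3 highest and the 3 lowest RPKM, and members described in the study's tables. This named 30 members, and the other 16 appear as counts or as chosen after their values were seen. Keyword lists of pathways were void, since only 1 of 46 members has a name. The qRT-PCR is not analysed here.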

Additional observations from a re-analysis of the deposited data

Results flagged for a closer look

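One of the 46 genes had its libraries move in opposite directions in the 2 treatments. In tetur28g01340 both curcumin libraries at 48 h were above both at 24 h, with a log2 of the means of 0.46, while both solvent libraries at 48 h were below both at 24 h, with −0.68. The solvent side was fixed by the choice of the gene, and the difference between the treatments was not tested. In 23.2% of the eligible genes both curcumin libraries at 48 h were above both at 24 h.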

How the results depend on the processing

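The depth, 8033325 to 8617973 reads per library, and 2 libraries a group limit the curcumin test. At an FDR of 0.05 it called 51 genes in all and 3 members lower. DESeq2 called 192 and 8. Without a filter on low counts edgeR called 0 and 0 (1671 genes and 12 lower members at an unadjusted p under 0.05), and at an FDR of 0.001 with an absolute log2 fold change of at least 1 also 0 and 0. Limma called 26, 24 and 16 genes with RPKM + 1, with RPKM + 0.1 and with all listed genes kept, and 0 members each time (11 members lower each time at an unadjusted p under 0.05, beside 1402, 1394 and 1536 genes in either direction). Leaving out 1 library gave 10 to 441 genes and 0 to 6 members. A lone library was then assumed to vary like the other group. The calls of tetur36g00190, tetur533g00010 and tetur05g05100 each held in 8 of 14 alternatives. With 2 libraries a group, members called higher stayed at 0 in every setting. The main fit called 0.22% of all genes tested higher, so 0 members is near that share and nothing is read from it. Over all settings the members' median log2 fold change stayed between −0.47 and −0.14.

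Deviations of same-numbered curcumin replicates at 24 h and 48 h had r = −0.10 across 7940 genes, which are not independent, and r ran from −0.09 to 0.32 over the 5 other pairs of groups, so the numbers were not taken to pair the libraries. A replicate block gave 40 genes and 3 members, or 72 and 4 with all 8 libraries. The crossed pairing, added after the data were seen, gave 366 and 12.

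The 19 members lower in curcumin without overlap became 21 to 38 with 1 library left out, and the 4 that met the ratio became 5 to 12. Such counts, and the number of genes the rule takes, can only stay or rise when a library is left out. The rule itself took 82 to 556 genes without 1 solvent library, 85 with a minimum of 20 reads and 3 with a ratio of at least 2, of which 2 were lower without overlap and 1 met the ratio in curcumin. Small log2 fold changes turned sign: tetur02g08430 to −0.042 with the replicate block, −0.035 with the crossed pairing and −0.10, −0.14 and −0.10 by limma (−0.88 to 0.64 with 1 library left out), and tetur10g04980 to −0.0057, −0.0059 and −0.0057 by limma (−0.045 to 0.13 with 1 library left out). With 1 library left out tetur03g05860 ran from −0.33 to 0.73 and tetur01g00940 from −0.12 to 0.43. The cause of these shifts was not tested.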
